A study of Arabidopsis thaliana with 36 samples.

Results

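Small heat shock proteins are small chaperones with an alpha-crystallin domain that bind unfolding proteins without using ATP and keep them soluble until larger chaperones refold them. Plants make many of them, each kept in its own compartment, and in leaves heat shock factors raise the activity of their genes during heat or oxidative stress. The 5 genes described here act outside mitochondria. AT1G53540 and AT2G29500 encode class I proteins of the cytosol, AT1G54050 a class III protein found in the nucleus, AT5G37670 a protein of the peroxisome, and ATHSP22.0 (locus AT4G10250) a protein of the endoplasmic reticulum. The genes were taken by name from the probe gene table, and each had 1 probe set that the table assigns to a single gene, so 5 of 13286 loci with such a probe set were members and all 5 were measured.

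Arabidopsis seedlings of the ecotype Columbia were sprayed at 14 days, their green leaf tissue was taken 3 h later, and its RNA was hybridised to one-colour arrays, 1 sample per array. The genotypes were rao2 (a line from EMS mutagenesis), anac017-1 (a T-DNA line labelled as a knock-out of the transcription factor ANAC017), anac017-2 (labelled gain of function for ANAC017) and wild type (labelled Col:LUC). Each was sprayed with 20 mM hydrogen peroxide, with 50 µM antimycin A (which blocks the respiratory chain at complex III) or with deionised water as mock, which gave 12 groups of 3 arrays and 36 arrays in all. Whether the mutants carry the Col:LUC reporter, and whether replicates came from separate plants or plates, is not given in the sources used here, so the p-values cover only the spread between samples, which may be technical. The study asks how far such responses depend on ANAC017, whose own transcript was not analysed here because the gene table lists no probe set for it alone.

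Levels are log2 of the deposited intensity. Array medians lay between 77.7 and 83.6 intensity units, and replicate arrays correlated across probe sets with r of 0.983 to 0.997, which describes the arrays only. Each array's lower quartile (2.45 to 2.56, log2) was used as the limit of its background, and levels not exceeding it are called not above background. The leaf markers RCA and PRK, 2 of 10 listed, were high in every group, with a summed intensity of 26007 to 37289. RCA was called in none of the comparisons with water or wild type, and PRK in those with antimycin A that are named with the results. The root markers, 3 of 10 listed, summed to 13.8 to 21.4 in every group except rao2 under antimycin A and water and anac017-1 under antimycin A and water, where the highest arrays reached 66.0, 51.2, 42.4 and 27.3. EXPA7 among them was not above background on any array. In rao2, EXPA18 was lower under hydrogen peroxide (-0.79 ± 0.26, adjusted p = 0.046) and antimycin A (-0.90 ± 0.26, adjusted p = 0.00513) than under water. Under antimycin A in rao2, 2 of the 3 root markers were called as lower (median of the 3 -0.15), beside 25.8% of all probe sets. None of the 6 seed markers had a probe set with a single gene. The part of these tissues in the results was not tested. In whole leaf tissue, more cells making a transcript and more transcript per cell cannot be told apart.

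Hydrogen peroxide raised all 5 genes in wild type, from 7.74-fold for AT2G29500 to at least 90.4-fold for ATHSP22.0. The ± beside a change is the standard error of a limma fit to all 36 arrays, with 3 arrays in each group, and a change was called where the p adjusted by Benjamini-Hochberg over all 22746 probe sets was under 0.05. In this comparison 6.74% of all probe sets were called as risen. Overlap of groups was described without a test, and how many of all probe sets had groups apart was not counted. ATHSP22.0 had levels of 8.90, 9.29 and 8.95 under hydrogen peroxide, against 2.60, 2.45 and 2.45 under water in wild type. In water 2 of these 3 arrays were not above background, so its rise was at least 6.50 (6.55 ± 0.39 in the fit, adjusted p = 2.94e-11). The endoplasmic reticulum member thus moved between background and a clearly measured level.

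The cytosolic class I gene AT1G53540 had 12.31, 12.69 and 12.33 under hydrogen peroxide, against 7.75, 7.13 and 7.42 under water in wild type, a rise of 5.01 ± 0.44 (adjusted p = 4.41e-08). AT2G29500, of the same class, had 12.43, 12.67 and 12.28 under hydrogen peroxide, against 9.22, 9.84 and 9.47 under water, a rise of 2.95 ± 0.50 (adjusted p = 0.000223). The groups did not overlap for either gene, and the rise of AT2G29500 was the smallest of the 5. The class III gene AT1G54050 had 12.22, 12.66 and 12.02 under hydrogen peroxide, against 7.80, 7.79 and 7.97 under water, a rise of 4.45 ± 0.32 (adjusted p = 1.54e-09). The peroxisomal gene AT5G37670 had 8.21, 8.81 and 7.90 under hydrogen peroxide, against 2.36, 3.38 and 4.51 under water, a rise of at least 4.84 (4.89 ± 0.52 in the fit, adjusted p = 7.76e-07). Its water arrays were the most scattered of any group of this gene (SD 1.08), and water replicate 1 was not above background. The median fitted change of the 5 genes was 4.89, beside -0.03 for all probe sets.

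**Figure D1:**
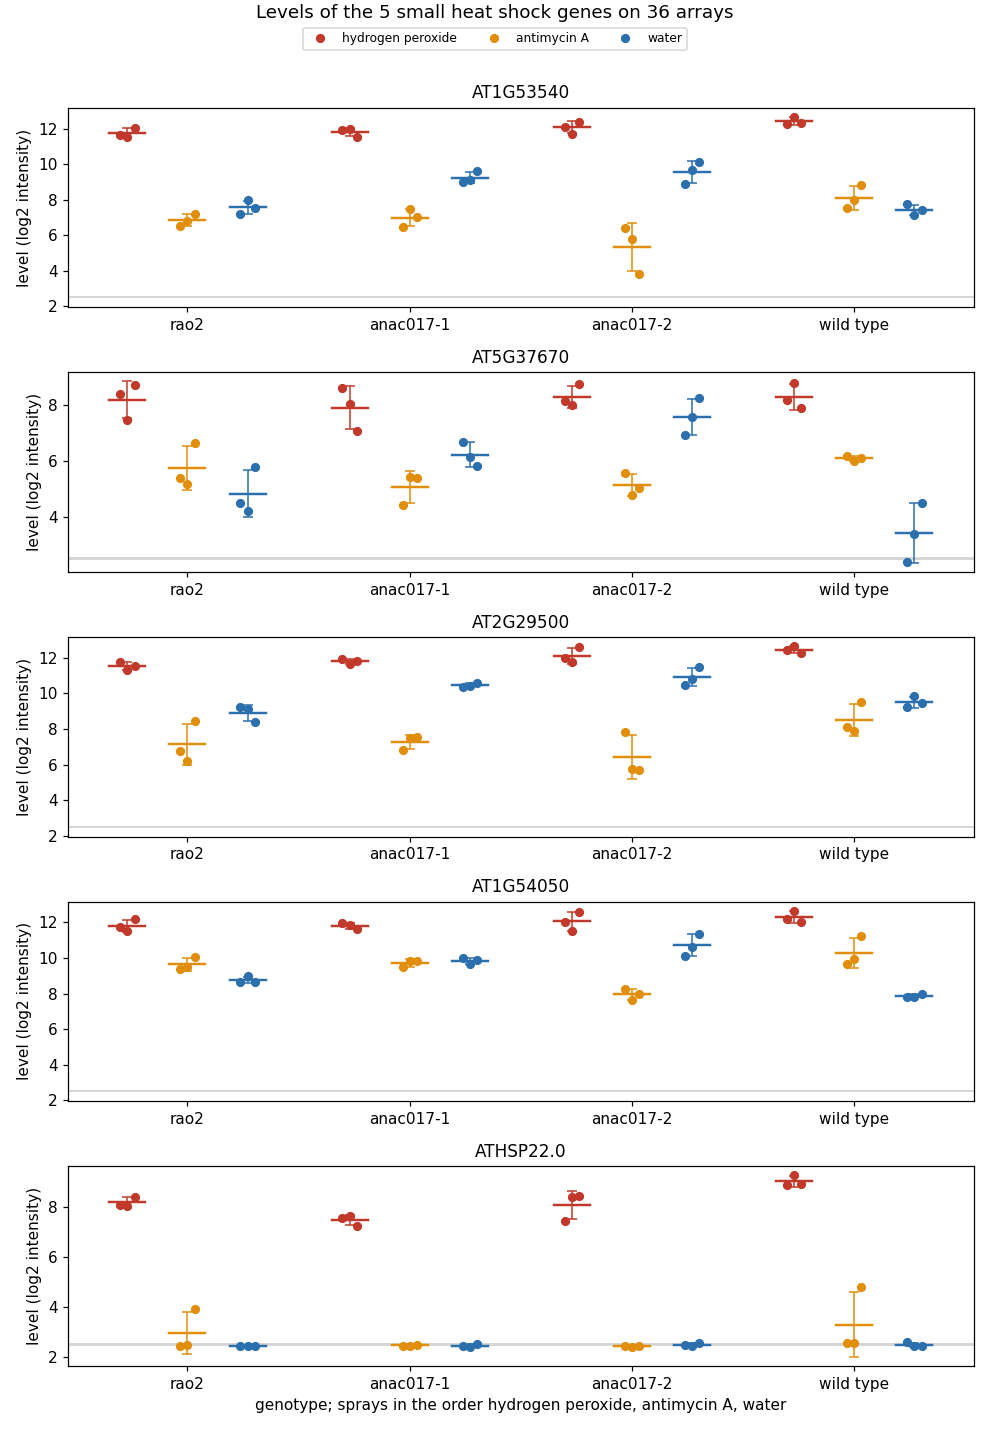
Level of each gene (log2 intensity) on all 36 arrays, in 1 panel per gene. Points are arrays, horizontal bars are group means with the SD of 3 arrays, and the grey band spans the lower quartiles of the arrays (2.45 to 2.56). Hydrogen peroxide groups have the highest mean in every genotype, and ATHSP22.0 lies near the band on every water array.

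In rao2 all 5 genes also rose under hydrogen peroxide, beside 5.12% of all probe sets called as risen. ATHSP22.0 had 8.10, 8.06 and 8.44 under hydrogen peroxide and was not above background on any of the 3 rao2 water arrays (2.46, 2.45 and 2.44), so its rise was at least 5.70 (5.75 ± 0.39 in the fit, adjusted p = 5.85e-10). AT1G53540 had 11.67, 11.56 and 12.07 under hydrogen peroxide, against 7.22, 7.97 and 7.55 under water in rao2, a rise of 4.19 ± 0.44 (adjusted p = 1.21e-06). AT2G29500 had 11.75, 11.34 and 11.54 under hydrogen peroxide, against 9.25, 9.10 and 8.40 under water, a rise of 2.63 ± 0.50 (adjusted p = 0.000926). The order of these 3 rises was that of wild type. AT1G54050 had 11.74, 11.51 and 12.20 under hydrogen peroxide, against 8.67, 8.97 and 8.63 under water, a rise of 3.06 ± 0.32 (adjusted p = 1.21e-06). AT5G37670 had 8.42, 7.47 and 8.73 under hydrogen peroxide, against 4.49, 4.22 and 5.78 under water, a rise of 3.38 ± 0.52 (adjusted p = 0.000117). Every hydrogen peroxide array of rao2 lay above every rao2 water array for all 5 genes, a description not counted over all probe sets.

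In anac017-1, 3 of the 5 genes rose under hydrogen peroxide, beside 0.783% of all probe sets. ATHSP22.0 had 7.58, 7.64 and 7.25 under hydrogen peroxide, against 2.47, 2.41 and 2.53 under water, and 2 of the water arrays were not above background, so it rose at least 32.0-fold (5.02 ± 0.39 in the fit, adjusted p = 1.21e-08). AT1G53540 had 11.97, 11.98 and 11.54 under hydrogen peroxide, against 9.03, 9.15 and 9.61 under water, a rise of 2.57 ± 0.44 (adjusted p = 0.00259). AT1G54050 had 11.97, 11.83 and 11.62 under hydrogen peroxide, against 9.99, 9.65 and 9.88 under water, a rise of 1.97 ± 0.32 (adjusted p = 0.00185). The groups were apart for these genes and for the remaining ones, which missed the threshold. How many of all probe sets were apart was not counted. AT5G37670 had 8.64, 8.04 and 7.09 under hydrogen peroxide, against 6.70, 6.16 and 5.81 under water, a change of 1.70 ± 0.52 (adjusted p = 0.101). AT2G29500 had 11.94, 11.67 and 11.81 under hydrogen peroxide, against 10.35, 10.44 and 10.57 under water, a change of 1.36 ± 0.50 (adjusted p = 0.206). With arrays weighted by their quality both were called (adjusted p = 0.00727 for AT5G37670 and 0.0209 for AT2G29500). AT2G29500 was also called with only the 2 groups compared in the fit (adjusted p = 0.0175).

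In anac017-2, 3 genes rose under hydrogen peroxide as well, beside 4.18% of all probe sets. ATHSP22.0 had 7.46, 8.40 and 8.47 under hydrogen peroxide, against 2.50, 2.46 and 2.58 under water, of which 1 array was not above background, and rose by at least 5.59 (5.59 ± 0.39 in the fit, adjusted p = 1.09e-09). AT1G53540 had 12.11, 11.74 and 12.42 under hydrogen peroxide, against 8.92, 9.68 and 10.14 under water, a rise of 2.51 ± 0.44 (adjusted p = 0.00094). AT1G54050 had 12.04, 11.54 and 12.58 under hydrogen peroxide, against 10.13, 10.63 and 11.37 under water, a rise of 1.34 ± 0.32 (adjusted p = 0.0096). Of these, the class III gene came closest to overlap. Its call was lost without hydrogen peroxide replicate 3 of anac017-2 (1.08, adjusted p = 0.0502), without water replicate 1 of anac017-2 (1.05, adjusted p = 0.0712) and with only the 2 groups in the fit (adjusted p = 0.16). AT2G29500 had 11.97, 11.75 and 12.63 under hydrogen peroxide, against 10.48, 10.83 and 11.48 under water, a change of 1.19 ± 0.50 (adjusted p = 0.145, and 0.0178 with array weights). AT5G37670 had 8.15, 8.03 and 8.77 under hydrogen peroxide, against 6.94, 7.57 and 8.25 under water, a change of 0.73 ± 0.52 (adjusted p = 0.479), and its groups overlapped.

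**Figure D2:**
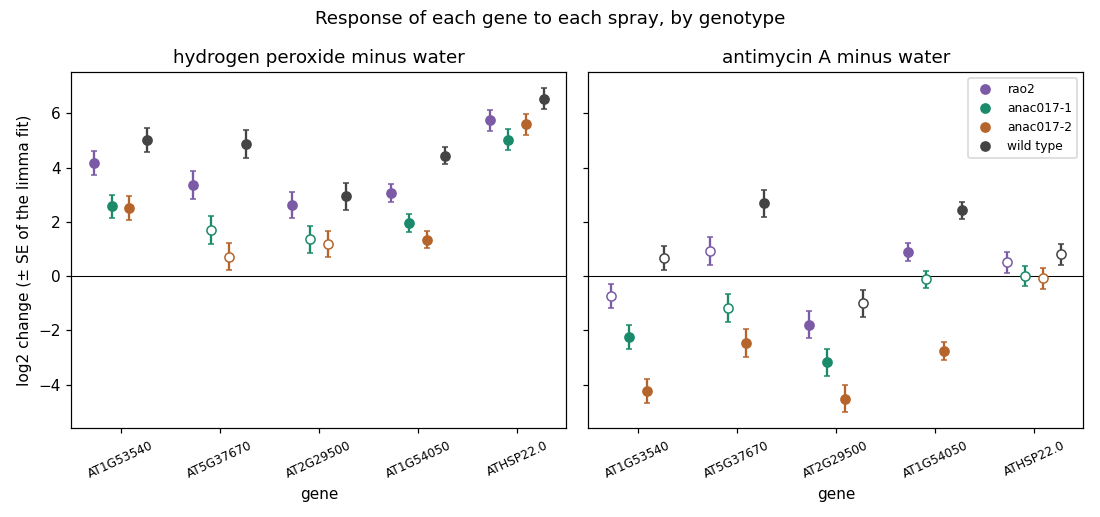
Change of each gene under hydrogen peroxide (left) and antimycin A (right) against water, in log2 with the standard error of the limma fit, for rao2, anac017-1, anac017-2 and wild type. Filled points passed the threshold and open points did not. Every hydrogen peroxide change lies above 0, while antimycin A changes run between -4.51 and 2.68.

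The water arrays of anac017-1 and anac017-2 held more of 3 of these transcripts than wild type water arrays did. In anac017-1 these were AT5G37670 (2.81 ± 0.52, adjusted p = 0.000956), AT1G54050 (1.99 ± 0.32, adjusted p = 0.000207) and AT1G53540 (1.83 ± 0.44, adjusted p = 0.012), beside 3.76% of all probe sets called as higher. In anac017-2 the same 3 genes were higher, AT5G37670 by 4.17 ± 0.52 (adjusted p = 7.94e-05), AT1G54050 by 2.86 ± 0.32 (adjusted p = 2.39e-05) and AT1G53540 by 2.15 ± 0.44 (adjusted p = 0.0181), beside 0.426% of all probe sets. These comparisons share the wild type water arrays, of which replicate 1 was not above background for AT5G37670, so its differences were at least 2.76 in anac017-1 and 4.12 in anac017-2. No anac017-1 or anac017-2 water array of these genes fell within the wild type range. The lowest anac017-2 water array of AT5G37670 was at 6.94, against a highest wild type array of 4.51. The lines carry opposite labels, knock-out and gain of function, and both were higher.

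AT2G29500 was at 10.45 ± 0.11 in anac017-1 water arrays and 10.93 ± 0.51 in anac017-2 water arrays, against 9.51 ± 0.31 in wild type (SD, n = 3 each). These differences of 0.94 ± 0.50 (adjusted p = 0.325) and 1.42 ± 0.50 (adjusted p = 0.331) were not called. That of anac017-2 was called with array weights (adjusted p = 0.00888). Neither mutant's arrays overlapped with wild type arrays, which was not counted over all probe sets and does not stand in for a call. ATHSP22.0 was near background in water in all 4 genotypes, with group means of 2.45 to 2.51. In rao2 water arrays limma called 0 of the 5 genes against wild type, beside 0.132% of all probe sets, and the largest difference was that of AT5G37670 (1.41 ± 0.52, adjusted p = 0.598). At an unadjusted p under 0.05, 1325 of the 22746 probe sets and 2 of the 5 genes, AT5G37670 and AT1G54050, differed in that comparison.

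The calls in water rest on 3 arrays in each group, and some of them depended on the fit or on single arrays. With only the 2 groups compared in the fit, none of the 3 genes was called in anac017-2 (adjusted p of 0.0882 for AT5G37670, 0.0526 for AT1G54050 and 0.0979 for AT1G53540), and in anac017-1 AT5G37670 was not called (adjusted p = 0.0811). The call of AT1G53540 in anac017-1 was lost without anac017-1 water replicate 3 (1.66, adjusted p = 0.0526) or wild type water replicate 2 (1.68, adjusted p = 0.0648). In anac017-2 it was lost without anac017-2 water replicate 2 or 3 (2.1 and 1.87, adjusted p of 0.0884 and 0.156) or wild type water replicate 2 or 3 (2.00 and 2.14, adjusted p of 0.0854 and 0.0614). The signal of control transcripts at their 3' end minus that at their 5' end, a measure of RNA integrity, was 3.28 ± 0.04 in anac017-1 water arrays and 3.15 ± 0.07 in anac017-2 water arrays, against 3.14 ± 0.17 in wild type water arrays (log2, SD, n = 3 each), and its part in these differences was not tested.

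Under hydrogen peroxide the genotypes lay closer together. The 4 genotype means of AT5G37670 spanned 0.39 under hydrogen peroxide, against 4.17 under water. For AT1G54050 the span was 0.49 under hydrogen peroxide, against 2.86 under water, and for AT1G53540 it was 0.68, against 2.15. AT2G29500 spanned 0.92 under hydrogen peroxide, against 2.01 under water. ATHSP22.0 differed from this, with a span of 1.55 under hydrogen peroxide and 0.07 in water, where it was at background. The spans are descriptions without a test.

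Set directly against wild type under hydrogen peroxide, 1 gene was called in 1 mutant. ATHSP22.0 was lower in anac017-1, at 7.58, 7.64 and 7.25 against 8.90, 9.29 and 8.95 in wild type (-1.55 ± 0.39, adjusted p = 0.0131), beside 1.97% of all probe sets called as lower. The 3' minus 5' signal of control transcripts (given above for water) was 3.25 ± 0.03 in these anac017-1 arrays, 3.34 ± 0.16 in rao2 and 3.11 ± 0.07 in anac017-2, against 3.17 ± 0.02 in wild type (log2, SD, n = 3 each). All anac017-1 and rao2 arrays lay above all wild type arrays in this measure, and its part in the results was not tested. The call was lost without anac017-1 hydrogen peroxide replicate 3 (-1.43, adjusted p = 0.0527) or wild type hydrogen peroxide replicate 2 (-1.43, adjusted p = 0.074). In rao2 and anac017-2 limma called 0 of the 5, beside 3.04% and 0.189% of all probe sets, where 691 and 43 were called. Differences of ATHSP22.0 were -0.85 ± 0.39 in rao2 (adjusted p = 0.282, and 0.029 with array weights) and -0.94 ± 0.39 in anac017-2 (adjusted p = 0.433). Wild type arrays lay above all rao2 and anac017-2 arrays, a separation that was not counted over all probe sets. For the other four genes the differences of the mutants from wild type ran between -0.92 and 0.01, with adjusted p of 0.412 or more. An unadjusted p under 0.05 was reached by ATHSP22.0 in rao2 and anac017-2 and by none of the other genes. In rao2 3435 of all probe sets reached it, and in anac017-2 2184 did, so it does not set ATHSP22.0 apart.

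**Figure D3:**
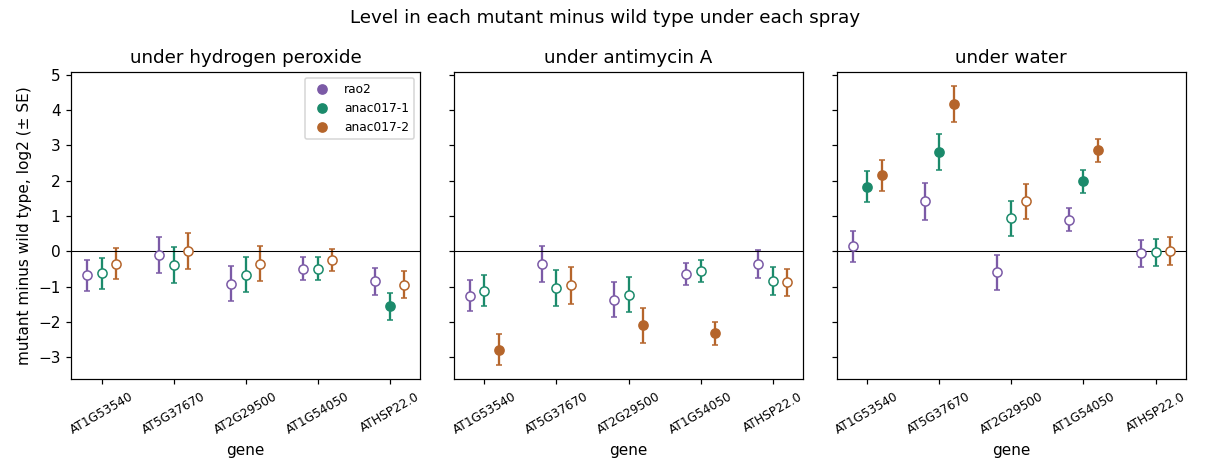
Level of each gene in each mutant minus wild type, in log2 with the standard error of the limma fit, under hydrogen peroxide, antimycin A and water. Filled points passed the threshold. Water differences of anac017-1 and anac017-2 lie well above 0 for AT5G37670, AT1G54050 and AT1G53540, and hydrogen peroxide differences lie between -1.55 and 0.01.

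The response itself, the rise over water in a mutant minus that in wild type, was also tested. For anac017-2 the hydrogen peroxide response was smaller for AT5G37670 (-4.16 ± 0.73, adjusted p = 0.0254) and AT1G54050 (-3.10 ± 0.45, adjusted p = 0.00542), beside 0.0308% of all probe sets, 7 in number, called as below 0. For anac017-1 it was smaller for AT1G54050 (-2.48 ± 0.45, adjusted p = 0.0427), beside 0.0176% of all probe sets. As given above, these genes were higher in the mutants' water arrays, while no mutant level of either gene was called against wild type under hydrogen peroxide. For rao2, limma called 0 of the 5 and 0.0132% of all probe sets, with differences from -1.51 ± 0.73 (AT5G37670) to -0.33 ± 0.70 (AT2G29500). At an unadjusted p under 0.05 the count in rao2 was 1501 probe sets, AT5G37670 and AT1G54050 among them.

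The remaining differences of the hydrogen peroxide response were below 0 and not called. AT1G53540 had -2.44 ± 0.62 in anac017-1 (adjusted p = 0.137) and -2.50 ± 0.62 in anac017-2 (adjusted p = 0.221), and AT5G37670 had -3.19 ± 0.73 in anac017-1 (adjusted p = 0.112). The call of AT1G54050 in anac017-1 did not survive leaving out 9 of the 12 arrays one at a time, namely hydrogen peroxide replicate 1, 2 or 3 or water replicate 1 or 3 of anac017-1, or hydrogen peroxide replicate 1 or 2 or water replicate 1 or 2 of wild type (adjusted p from 0.0509 to 0.116 without them). The call of AT5G37670 in anac017-2 was lost without water replicate 2 or 3 of anac017-2 or without hydrogen peroxide replicate 1 or 2 or water replicate 1 or 2 of wild type (adjusted p from 0.0503 to 0.0956). With only the 4 groups compared in the fit, both anac017-2 calls were lost (adjusted p of 0.224 for AT5G37670 and 0.159 for AT1G54050), and 4 genes of anac017-1 were called, AT1G53540 (adjusted p = 0.0207), AT2G29500 (0.0365) and ATHSP22.0 (0.0158) among them. With array weights 4 were called there too, AT1G53540 (0.0209), AT5G37670 (0.0126) and ATHSP22.0 (0.0244) among them. Without wild type water replicate 3, AT5G37670 was called in anac017-1 (-3.74, adjusted p = 0.0194).

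Antimycin A did not move the 5 genes together. In wild type it raised AT5G37670 and AT1G54050, beside 17.2% of all probe sets called as risen. AT5G37670 had 6.17, 6.01 and 6.11 under antimycin A, against the 2.36, 3.38 and 4.51 of water, a rise of at least 2.63 (2.68 ± 0.52 in the fit, adjusted p = 9.78e-05). AT1G54050 had 9.67, 9.95 and 11.22 under antimycin A, against the 7.80, 7.79 and 7.97 of water, a rise of 2.43 ± 0.32 (adjusted p = 5.8e-07). Both groups were apart from water. AT1G53540 had 7.52, 7.98 and 8.84 under antimycin A in wild type, a change of 0.68 ± 0.44 (adjusted p = 0.245). AT2G29500 had 8.12, 7.88 and 9.52 under antimycin A, a change of -1.0 ± 0.50 (adjusted p = 0.111). ATHSP22.0 had 2.56, 2.57 and 4.81 under antimycin A, a change of 0.81 ± 0.39 (adjusted p = 0.0947) that its replicate 3 set almost alone.

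Wild type antimycin A replicate 3 was the highest of its group for 4 of the 5 genes, AT5G37670 excepted. Without it AT2G29500 was called as lower (-1.51, adjusted p = 0.0217), as it was with array weights (-1.48, adjusted p = 0.00151). Without replicate 1 or replicate 2, ATHSP22.0 was called as higher (1.19 in each case, adjusted p of 0.019 and 0.0211). The uncalled changes of these genes therefore hung on single arrays.

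In rao2, antimycin A gave 1 rise and 1 fall among the 5, beside 16.4% of all probe sets called as risen and 25.8% as fallen. AT1G54050 had 9.41, 9.48 and 10.04 under antimycin A, against the 8.67, 8.97 and 8.63 of water, a rise of 0.89 ± 0.32 (adjusted p = 0.0274). AT2G29500 had 6.79, 6.19 and 8.42 under antimycin A, against the 9.25, 9.10 and 8.40 of water, a change of -1.78 ± 0.50 (adjusted p = 0.00438), and its groups overlapped slightly. AT5G37670 had 5.39, 5.20 and 6.66 under antimycin A (0.91 ± 0.52, adjusted p = 0.173), AT1G53540 had 6.56, 6.79 and 7.23 (-0.72 ± 0.44, adjusted p = 0.216), and ATHSP22.0 had 2.45, 2.51 and 3.92 (0.51 ± 0.39, adjusted p = 0.342). The rise of AT1G54050 was lost without antimycin A replicate 3 (0.69, adjusted p = 0.146), water replicate 1 (0.84, adjusted p = 0.0711) or water replicate 3 (0.82, adjusted p = 0.0814) of rao2. Without antimycin A replicate 3 the change of AT2G29500 was -2.43. Its call was lost with only the 2 groups in the fit (adjusted p = 0.0976), and AT5G37670 was called without rao2 water replicate 3 (1.39, adjusted p = 0.0462).

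In anac017-1 the 2 cytosolic class I genes fell under antimycin A, beside 27.7% of all probe sets called as fallen. AT1G53540 had 6.49, 7.49 and 7.04 under antimycin A, against the 9.03, 9.15 and 9.61 of water (-2.25 ± 0.44, adjusted p = 0.000107). AT2G29500 had 6.82, 7.49 and 7.53 under antimycin A, against the 10.35, 10.44 and 10.57 of water (-3.17 ± 0.50, adjusted p = 5.56e-06). Neither gene's groups overlapped. AT5G37670 had 4.41, 5.42 and 5.39 under antimycin A, against the 6.70, 6.16 and 5.81 of water (-1.15 ± 0.52, adjusted p = 0.0723, and 0.0283 with array weights). AT1G54050 had 9.47, 9.85 and 9.85 under antimycin A, against the overlapping 9.99, 9.65 and 9.88 of water (-0.12 ± 0.32, adjusted p = 0.893), and ATHSP22.0 stayed near background at 2.47, 2.46 and 2.50.

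In anac017-2 the 4 genes other than ATHSP22.0 fell under antimycin A, beside 8.39% of all probe sets called as fallen. AT1G53540 had 6.41, 5.80 and 3.80 under antimycin A, against the 8.92, 9.68 and 10.14 of water (adjusted p = 8.99e-07), a fitted level 0.0527 times that in water. AT2G29500 had 7.83, 5.73 and 5.71 under antimycin A, against the 10.48, 10.83 and 11.48 of water (-4.51 ± 0.50, adjusted p = 1.71e-06). The class I genes thus showed the lowest levels of all 12 groups here. AT1G54050 had 8.28, 7.65 and 7.95 under antimycin A, against the 10.13, 10.63 and 11.37 of water (-2.75 ± 0.32, adjusted p = 4.89e-06). AT5G37670 had 5.57, 4.79 and 5.05 under antimycin A, against the 6.94, 7.57 and 8.25 of water (-2.45 ± 0.52, adjusted p = 0.00186). ATHSP22.0 was not above background on any of the 3 antimycin A arrays (2.45, 2.42 and 2.45). In both directions together antimycin A gave calls for 15.3% of all probe sets in anac017-2, 42.2% in rao2, 45.3% in anac017-1 and 44% in wild type. No call named here for anac017-2 was lost when any 1 array was left out, but without antimycin A replicate 3 the change of AT1G53540 was -3.48, and without replicate 1 that of AT2G29500 was -5.21. The leaf marker PRK was higher under antimycin A than under water in anac017-2 (0.50 ± 0.17, adjusted p = 0.0406), and lower in anac017-1 (-0.81 ± 0.17, adjusted p = 0.000207) and wild type (-0.62 ± 0.17, adjusted p = 0.00297). Its part in the results was not tested.

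The antimycin A response, the change over water in anac017-2 minus that in wild type, was below 0 and called for 4 genes, beside 11.1% of all probe sets called as below 0. These were AT1G54050 (-5.18 ± 0.45, adjusted p = 6.69e-09), AT5G37670 (-5.13 ± 0.73, adjusted p = 7.85e-06), AT1G53540 (-4.93 ± 0.62, adjusted p = 1.63e-06) and AT2G29500 (-3.51 ± 0.70, adjusted p = 0.000408). Without anac017-2 antimycin A replicate 3 the difference of AT1G53540 was -4.16, and without replicate 1 that of AT2G29500 was -4.21. In anac017-1 the difference was below 0 and called for AT5G37670 (-3.83 ± 0.73, adjusted p = 0.00252), AT1G53540 (-2.94 ± 0.62, adjusted p = 0.00663) and AT1G54050 (-2.54 ± 0.45, adjusted p = 0.00129), beside 1.81% of all probe sets. AT2G29500 had -2.17 ± 0.70 there (adjusted p = 0.102). AT5G37670 and AT1G54050 rose in wild type and AT2G29500 and AT1G53540 were not called there, so a difference below 0 is not by itself a smaller change. The leaf marker PRK had a difference of 1.13 ± 0.24 in anac017-2 (adjusted p = 0.000648), and its part was not tested. For rao2 limma called 0 of the 5, beside 1.3% of all probe sets, with differences from -1.77 ± 0.73 (AT5G37670) to -0.30 ± 0.55 (ATHSP22.0). At an unadjusted p under 0.05 the count in rao2 was 2210 probe sets, AT5G37670, AT1G53540 and AT1G54050 among them, and AT1G54050 was called without wild type antimycin A replicate 1 (-1.85, adjusted p = 0.0303).

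Compared at the level under antimycin A alone, anac017-2 was lower than wild type in 3 genes, beside 15% of all probe sets called as lower. AT1G53540 was lower by 2.78 on the log2 scale (adjusted p = 1.18e-05), AT1G54050 by 2.32 (adjusted p = 1.89e-06) and AT2G29500 by 2.09 (adjusted p = 0.00122, and 0.1005 with only the 2 groups in the fit). Without anac017-2 antimycin A replicate 3 the difference of AT1G53540 was -2.01, and without replicate 1 that of AT2G29500 was -2.79. AT5G37670 (-0.96 ± 0.52, adjusted p = 0.157) and ATHSP22.0 (-0.87 ± 0.39, adjusted p = 0.0779) were not called. AT5G37670 was called with only the 2 groups in the fit (adjusted p = 0.0215), and ATHSP22.0 without wild type antimycin A replicate 1 or 2 (-1.25 in each case, adjusted p of 0.0156 and 0.0179). In rao2 and anac017-1, limma called 0 of the 5 under antimycin A, beside 6.66% and 18.6% of all probe sets, where 1516 and 4242 were called. The 3' minus 5' signal of control transcripts under antimycin A was 3.38 ± 0.17 in rao2, 3.48 ± 0.20 in anac017-1 and 3.16 ± 0.03 in anac017-2, against 3.10 ± 0.07 in wild type (log2, SD, n = 3 each), with all rao2 and anac017-1 arrays above all wild type arrays. The leaf marker PRK was higher in anac017-2 than in wild type under antimycin A (1.28 ± 0.17, adjusted p = 7.73e-07). The part of either in these differences was not tested. The member differences ran between -1.37 and -0.35 in rao2 and between -1.23 and -0.56 in anac017-1, all below 0. At an unadjusted p under 0.05, AT1G53540 and AT2G29500 differed in rao2, where 4196 of all probe sets did. In anac017-1, AT1G53540, AT2G29500 and ATHSP22.0 differed at that threshold, where 6644 of all probe sets did. AT2G29500 was called in rao2 without rao2 antimycin A replicate 3 (-2.02, adjusted p = 0.0121), and ATHSP22.0 in anac017-1 without wild type antimycin A replicate 1 or 2 (-1.21 in each case, adjusted p of 0.0461 and 0.0412).

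Set against each other, the sprays differed for every gene in every genotype, with antimycin A below hydrogen peroxide. All 5 were called as lower under antimycin A in rao2, anac017-1, anac017-2 and wild type, beside 24.2%, 28.2%, 3.04% and 21.6% of all probe sets. In wild type the differences were -5.73 ± 0.39 for ATHSP22.0, -4.33 ± 0.44 for AT1G53540, -3.95 ± 0.50 for AT2G29500, -2.21 ± 0.52 for AT5G37670 and -2.02 ± 0.32 for AT1G54050, with adjusted p of 0.0012 or less. The endoplasmic reticulum and class I members therefore separated the sprays by more than the peroxisomal and nuclear members, which antimycin A had also raised. In anac017-2 the difference of AT1G53540 was -6.76 ± 0.44 and that of AT2G29500 was -5.69 ± 0.50 (adjusted p of 2.94e-10 and 2.07e-08, but 0.057 and 0.0618 with only the 2 groups in the fit). Without 1 antimycin A array some of these differences, read as folds and not as log2 values, moved by over 1.5 times. In wild type ATHSP22.0 had -6.48 without replicate 3, in rao2 AT2G29500 had -5.05 without replicate 3, and in anac017-2 AT1G53540 had -5.99 without replicate 3 and AT2G29500 had -6.40 without replicate 1. The leaf marker PRK was lower under antimycin A than under hydrogen peroxide in rao2 (-0.82 ± 0.17), anac017-1 (-1.07 ± 0.17) and wild type (-0.76 ± 0.17), with adjusted p of 0.000672 or less, and RCA was lower in anac017-1 (-0.14 ± 0.04, adjusted p = 0.00286). Their part in these differences was not tested.

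The levels of each gene put the groups into an order whose neighbours mostly overlap. For AT1G53540 the 4 hydrogen peroxide groups (means 11.77 to 12.44) came first, each overlapping with its neighbour in the order although wild type lay above all rao2 and anac017-1 arrays, followed after a gap by water-sprayed anac017-2 (9.58) and anac017-1 (9.26), and after another gap by antimycin A in wild type (8.11) and the remaining groups. Antimycin A in anac017-2 was last (5.34) and did not overlap with its neighbour, and 8 of the 11 neighbouring pairs overlapped. For AT2G29500 the order was alike at both ends, with hydrogen peroxide in wild type first (12.46) and antimycin A in anac017-2 last (6.42). Water-sprayed anac017-2 followed the hydrogen peroxide groups without a gap, and 9 of 11 neighbouring pairs overlapped.

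AT1G54050 had the hydrogen peroxide groups first (11.81 to 12.30), then water-sprayed anac017-2 (10.71), antimycin A in wild type (10.28) and water-sprayed anac017-1 (9.84), and had wild type water arrays last (7.85), with 8 of 11 neighbouring pairs overlapping. AT5G37670 had wild type water arrays last as well (3.42). Its hydrogen peroxide groups (7.92 to 8.32) ran without a gap into water-sprayed anac017-2 (7.59), and 10 of 11 neighbouring pairs overlapped. For ATHSP22.0 hydrogen peroxide in wild type (9.05) was apart from the other hydrogen peroxide groups (7.49 to 8.20). Antimycin A in wild type (3.31) was next after a wide gap, and antimycin A in rao2 (2.96) overlapped with it. In both groups replicate 3 (4.81 and 3.92) stood above the other arrays, which lay near background like the remaining groups. Among levels near background the order has no meaning.

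The 5 genes also varied together between arrays of one group. After each group mean was removed, 18 of 36 arrays had all 5 genes on the same side of the mean. The correlation of these deviations between pairs of genes ran from 0.28 (AT5G37670 with ATHSP22.0) to 0.72 (AT2G29500 with AT1G54050) over 36 arrays, beside 0.76 to 0.96 for the 12 group means. These are descriptions, since genes on an array share its RNA and normalization. On most arrays outside hydrogen peroxide ATHSP22.0 lay near background, so its side of the mean there has little meaning. Its deviation was 0.0066 on antimycin A replicate 1 of anac017-2 and -0.0178 on water replicate 1 of anac017-2. The count and the correlations include such values. Antimycin A replicate 3 of wild type (mean deviation 0.84) and of rao2 (0.79) and antimycin A replicate 1 of anac017-2 (0.65) were the highest above their groups, each with all 5 genes above. Among the other arrays of anac017-2, water replicate 3 (0.50) and hydrogen peroxide replicate 3 (0.44) were above for all 5 genes, and water replicate 1 of anac017-2 (-0.47) was below for all 5.

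**Figure D4:**
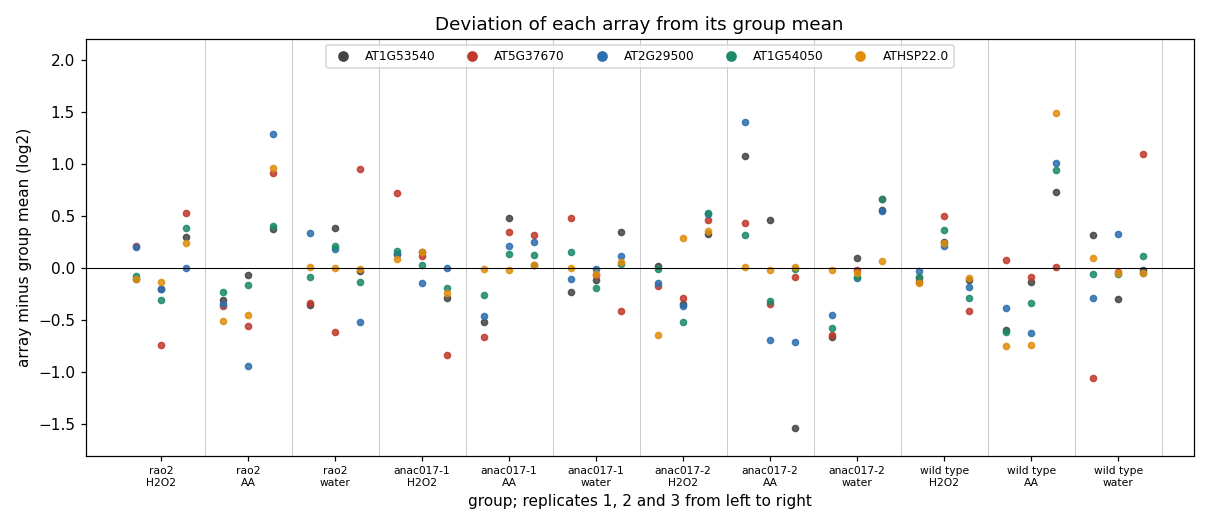
Level of each gene on each array minus the mean of its group (log2), with arrays of 1 group side by side. The 5 genes of an array tend to lie on the same side of 0, as on antimycin A replicate 3 of wild type and rao2, while AT5G37670 departs from the others in wild type water arrays.

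Several of the genes whose 12 group means most resembled the average of the members are heat shock partners. Of 2424 other probe sets with a single gene and an SD of at least 0.5 over the group means, AT2G20560, encoding a DnaJ co-chaperone, had the highest Pearson correlation (0.98). AT5G35320 (0.98), AT5G25450, a subunit of mitochondrial complex III (0.97), AT1G72660 (0.95), Hop3 (0.95), HSA32 (0.95), AT3G07090 (0.94) and Fes1A (0.94) followed. Taken alone, AT1G53540 was most like AT5G25450 (0.98), AT5G37670 most like AT2G20560 (0.95), AT1G54050 most like AT2G20560 (0.97), AT2G29500 most like AT5G48570 (0.99) and ATHSP22.0 most like AT4G23493 (0.99). AT4G23493 rose by 4.08 ± 0.23 under hydrogen peroxide in wild type and, like ATHSP22.0, was not called in anac017-1 or anac017-2 against wild type in water (-0.09 ± 0.23 and 0.07 ± 0.23). These correlations run over the same 12 groups for every gene and carry no test. That of ATHSP22.0 rests mainly on hydrogen peroxide against levels near background, as its means in the other groups were 2.44 to 3.31.

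The wider heat shock machinery gives the background for these 5. Of 14 listed co-chaperones and heat-induced partners 9 were measured, and 7 rose under hydrogen peroxide in wild type, beside the 6.74% of all probe sets, with a median fitted change of 2.90. They were the DnaJ genes AT1G71000 (6.02 ± 0.80) and AT2G20560 (3.17 ± 0.36), HSA32, which keeps plants tolerant after a first heat treatment (at least 4.59, with 2 wild type water arrays not above background), AT1G72660 (4.60 ± 0.38), Hop3, which links HSP70 and HSP90 (2.90 ± 0.38), Fes1A, a partner of HSP70 (2.55 ± 0.25), and the peptidyl-prolyl isomerase gene AT5G48570 (2.32 ± 0.35). The DnaJ genes ATERDJ3B (-0.39 ± 0.19) and AT3G14200 (0.62 ± 0.44) were not called. In water 5 of these 9 were higher in anac017-2 than in wild type (median 1.77, beside 0.426% of all probe sets) and 4 in anac017-1 (median 1.38, beside 3.76%), and none of the 9 was called in rao2. AT1G71000 was higher by 5.02 ± 0.80 in anac017-2 and by 4.40 ± 0.80 in anac017-1, and Fes1A by 1.88 ± 0.25 and 1.45 ± 0.25. AT1G72660, like ATHSP22.0, was not called in either (0.65 ± 0.38 and 0.09 ± 0.38).

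Values of other small heat shock genes stand beside those of these 5 without a test between them. Of 4 listed for mitochondria and plastids, the 2 measured ones are mitochondrial and rose under hydrogen peroxide in wild type, AT1G52560 by at least 4.78 (1 water array not above background) and AT5G51440 by 2.23 ± 0.48, and in water AT5G51440 was higher in anac017-2 (2.49 ± 0.48) while AT1G52560, near background in water, was not called. Of 9 other alpha-crystallin domain genes listed for the cytosol and nucleus 3 were measured, and of these AT2G19310 rose (0.93 ± 0.20), and AT4G21870 (-0.68 ± 0.39) and AT5G47600 (-1.22 ± 0.48) were not called. Of 16 listed HSP70, HSP90 and HSP100 genes 2 were measured, and these HSP70 genes, AT3G09440 (0.33 ± 0.22) and Hsp70-2 (0.46 ± 0.65), were not called under hydrogen peroxide in wild type. Both were lower under antimycin A than under water in wild type (-1.32 ± 0.22 and -2.51 ± 0.65), beside 26.7% of all probe sets called as fallen, and in anac017-1 (-2.47 ± 0.22 for AT3G09440, and -4.69 or lower for Hsp70-2, with 1 antimycin A array not above background). In rao2 and anac017-2 both were called as lower too, with medians of -2.37 and -1.84. The shares of all probe sets called as fallen there were 25.8% and 8.39%, and 27.7% in anac017-1. Of 20 listed heat shock factors and regulators 0 had a probe set with a single gene, so no regulator was measured.

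**Figure D5:**
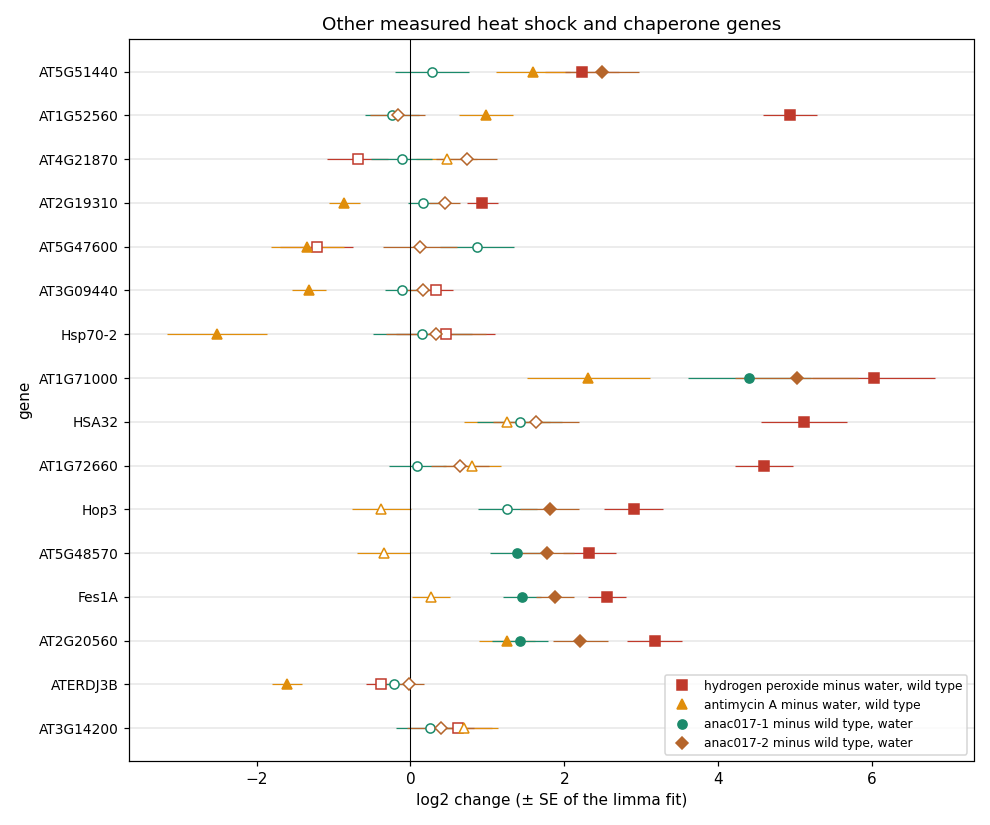
Change of 16 other heat shock and chaperone genes, in log2 with the standard error of the limma fit, for hydrogen peroxide and for antimycin A against water in wild type, and for anac017-1 and anac017-2 against wild type in water. Filled symbols passed the threshold. AT1G71000 lies far above 0 in all 4 comparisons, and AT1G72660 and AT1G52560 rose under hydrogen peroxide while their water differences were not called.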

How the data were processed

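RNA of 36 leaf samples was measured on one-colour Affymetrix arrays, 1 sample per array. The deposited values are linear intensity values per probe set, already normalized by the authors. RMA and GCRMA are named, with no version, per the submitters' processing notes, and the sources used here do not settle which one gave these intensities. Scanner files were not analysed here, and the number of arrays limits the precision.

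The log2 of each value was used. Of 22810 probe sets 64 controls were left out, and 22746 were fitted to 12 group means with limma 3.58.1 in R 4.3.3 (lmFit, eBayes, 24 residual and 1.28 prior degrees of freedom), with Benjamini-Hochberg adjustment within each of 27 comparisons. Of these, 6 comparisons of a mutant with wild type under a spray were added after results were seen. Gene names came from the platform's table where it lists 1 gene, with loci through RefSeq. Cross-hybridisation between similar class I genes was not tested. Where "at least" stands before a change, values not above background were raised to the array's lower quartile, a limit chosen with results known.

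The members, gene lists and tests were chosen with earlier results of these data known. The 5 members are named throughout. Listed genes with a probe set for 1 gene could be named, and so could the 8 genes most like the members' mean and the 1 most like each member. The fit was tested on simulated data. Replicate numbers are shared between groups, but same-numbered arrays of different groups deviated with correlations of -0.33 to 0.39 (median 0.04), so they were not treated as pairs. The alternatives were quantile normalization, a filter on low values, raised low values, array weights, only the groups compared, a replicate block, a trended robust variance, a stricter threshold and leaving out each array. The promoter motif search was not made.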

Additional observations from a re-analysis of the deposited data

Results flagged for a closer look

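Responses of the 5 genes that differed between a mutant and wild type by a test of the difference itself were singled out. For hydrogen peroxide the response was smaller in anac017-2 than in wild type for AT5G37670 (-4.16 on the log2 scale) and AT1G54050 (-3.10), and smaller in anac017-1 for AT1G54050 (-2.48). Both anac017-2 calls were lost with only the groups compared in the limma fit (adjusted p of 0.224 and 0.159). The anac017-1 call was lost when any of several single arrays was left out (adjusted p from 0.0509 to 0.116). For antimycin A the change over water in the mutant minus that in wild type was below 0 in anac017-2 for AT1G54050 (-5.18), AT5G37670 (-5.13), AT1G53540 (-4.93) and AT2G29500 (-3.51). In anac017-1 it was below 0 for AT5G37670 (-3.83), AT1G53540 (-2.94) and AT1G54050 (-2.54). In wild type AT5G37670 and AT1G54050 rose under antimycin A, and AT1G53540 and AT2G29500 were not called. A value below 0 is therefore not by itself a smaller change. AT5G37670, AT1G54050 and AT1G53540 were higher in the water arrays of both mutants than in those of wild type, and AT2G29500 was not called there, and how much of each difference lies in the water arrays was not tested beyond the comparisons given above.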

How the results depend on the processing

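Of 2070 recomputed changes of the 5 genes, 1973 kept their direction and their side of the threshold, 45 were no longer called, 26 became called, and 26 changed sign without being called either way. The replicate number as a block changed no call of a member, so that 5 of the 5 stayed called for hydrogen peroxide in wild type, and moved the number of probe sets called by more than 1.5 times for the hydrogen peroxide response of rao2 (1 against 3) and of anac017-1 (13 against 6).

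The count of members called moved by more than 1.5 times as follows. Array weights gave 5 for hydrogen peroxide against water in anac017-1, 4 for the hydrogen peroxide response of anac017-1 and 1 for rao2 against wild type under hydrogen peroxide. A fit of only the groups compared gave 1 for antimycin A against water in rao2, 3 for antimycin A against hydrogen peroxide in anac017-2, 0 for anac017-2 against wild type in water, 4 for the hydrogen peroxide response of anac017-1 and 0 for that of anac017-2. An adjusted p under 0.01 gave 1 for antimycin A against water in rao2, 0 and 1 for the hydrogen peroxide responses of anac017-1 and anac017-2, and 0 for anac017-1 against wild type under hydrogen peroxide. Leaving out 1 array gave 1 to 2 for antimycin A against water in rao2. It gave 0 to 2 and 1 to 2 for the hydrogen peroxide responses of anac017-1 and anac017-2. It gave 0 to 1 for the antimycin A response of rao2, for anac017-1 against wild type under hydrogen peroxide, and for rao2 and anac017-1 against wild type under antimycin A.

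Smaller moves by 1 member were array weights adding 1 for hydrogen peroxide in anac017-2, antimycin A in wild type and anac017-1, and anac017-2 in water. A fit of only the groups compared added 1 for hydrogen peroxide in anac017-1, and gave 2 of the 3 for hydrogen peroxide in anac017-2 and for anac017-1 in water. Leaving out 1 array gave 2 to 3 for hydrogen peroxide in anac017-2, for antimycin A in wild type and for both mutants in water, and 3 to 4 for anac017-2 under antimycin A, and an adjusted p under 0.01 gave 2 for both mutants in water.

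Signs turned for small differences that were not called. For ATHSP22.0 these were antimycin A against water in anac017-1 with low values raised (-0.002) or without 1 array (-0.0218 to 0.0358), anac017-1 against wild type in water with quantile normalization (0.0118) or without 1 array (-0.0576 to 0.0202), and anac017-2 against wild type in water with low values raised (-0.0257), array weights (-0.0261) or without 1 array (-0.0189 to 0.0649). For ATHSP22.0 they were also the antimycin A response of rao2 with array weights (0.2306) or without 1 array (-0.7845 to 0.4435), and rao2 against wild type under antimycin A with array weights (0.1799) or without 1 array (-0.8352 to 0.3929). For AT5G37670 under hydrogen peroxide they were rao2 (-0.362 to 0.2696 without 1 array), anac017-1 (-0.7424 to 0.0337) and anac017-2 (-0.0023 with quantile normalization, -0.2218 to 0.2588 without 1 array) against wild type. For AT1G54050 they were antimycin A against water in anac017-1 (-0.2142 to 0.009) and anac017-2 against wild type under hydrogen peroxide (-0.5082 to 0.0121), and for AT1G53540 rao2 against wild type in water (-0.0457 to 0.3266), each without 1 array. The cause was not tested.

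Counts over all probe sets moved by more than 1.5 times in 111 of 414 recomputations. For hydrogen peroxide against water in wild type 3361 were called, and 1681 to 5244 under the alternatives. For rao2 against wild type under hydrogen peroxide and antimycin A the 691 and 1516 called became 45 to 2061 and 2 to 1892, and for anac017-2 under hydrogen peroxide the 43 became 2 to 320. For anac017-1 under antimycin A the 4242 became 1062 to 4939. Signal near background limits what can be said of ATHSP22.0 outside hydrogen peroxide.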
